A study of Mus musculus with 2 samples.

Results

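Galectins are lectins that bind β-galactoside sugars on glycoproteins and glycolipids, and 5 of their genes, Lgals1, Lgals2, Lgals3, Lgals7 and Lgals9, were followed here over the cell classes of the mouse fetal ovary. The genes were taken by their symbols in the gene tables of both libraries, where they are 5 of 27998 genes, each with 1 row. The family was chosen by a measured value, the high level of Lgals7 in wild-type (WT) granulosa cells against WT germ cells. That contrast is therefore given as a description. The library with a deletion of the glucocorticoid receptor (GR) is not part of that contrast and is given beside it, though the members were chosen with earlier results of these data known.

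Galectins are made in the cytosol without a signal peptide and reach the cell surface by a route that bypasses the Golgi, so they act both inside cells and on the sugars of neighbouring cells and matrix. Galectin-1, galectin-2 and galectin-7 are prototype members with a single sugar-binding domain, galectin-3 joins such a domain to a long proline- and glycine-rich tail, and galectin-9 joins a pair of different domains by a linker. Galectin-1 is known from mesenchymal and stromal cells, galectin-3 from macrophages, galectin-7 from stratified epithelia and galectin-2 from the gut, while galectin-9 is a ligand of the immune receptor encoded by Havcr2.

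Single-cell RNA-seq was carried out on ovaries of E15.5 embryos, freed from the mesonephroi, of the strain labelled Tg(Pou5f1-EGFP)2Mnn Nr3c1tm1.1Jda. The KO group carried a homozygous, constitutive GR deletion, made by crossing a floxed exon 3 of Nr3c1, the gene of GR, to a β-actin Cre line. The WT group carried no deletion, and the ovaries were pooled from 2 KO embryos and from 4 WT embryos. Germ cells sorted by the OCT4-GFP transgene, which marks germ cells, were mixed with the GFP-negative somatic cells at 60 to 40, and each pool gave 1 library. Because the homozygous deletion is lethal at birth, the allele was kept in heterozygotes, and since every cell type of a KO ovary lacked GR, effects within a cell and effects from its neighbours cannot be told apart. With 1 library per genotype no test between the genotypes was possible, and genotype cannot be told apart from pool, sort or capture.

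The KO library held 17829 cell barcodes and 186117981 unique molecular identifiers (UMIs, each 1 captured transcript), and the WT library held 11430 barcodes and 168483330 UMIs. The limits of the study left 15502 KO and 9045 WT cells, at a median of 10194.5 and 15685 UMIs per cell, and 27 kept barcodes occurred in both libraries. Cell classes were rebuilt from marker genes with the galectins left out of the clustered genes, and they carry the suffix -like. Granulosa-like cells met 10 of 11 markers in the first clustering, but Foxl2, a defining granulosa factor, had a UMI in only 2.46% of them in KO and 4.40% in WT. The theca-like class holds stromal progenitors and epithelia-like cells hold surface epithelium. Clusters that held both germ and somatic markers were set apart as mixed, 791 KO and 241 WT cells, of which the doublet caller Scrublet marked 76.1% and 50.2%. Nr3c1 was at 11.6 CPM, counts scaled to 1000000 UMIs of the class, in KO germ-like cells and at 72.2 CPM in WT, a log2 ratio of −2.64 (95% interval −2.73 to −2.56, which like all intervals here covers counting error only). Its log2 ratio lay between −1.91 and −1.88 in the 3 large somatic classes (granulosa-like, theca-like, epithelia-like). The 3-prime tags lie outside the deleted exon, so these values bear on the level of the transcript and do not check the deletion itself.

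All 5 genes are annotated as protein-coding (mouse build GRCm38, GENCODE M21). Lgals7 lies at chr7:28863853-28866284 on the plus strand. Lgals1 (chr15:78926725-78930465, plus strand) and Lgals2 (chr15:78850860-78855529, minus strand) lie on the same chromosome, 71.2 kb apart. Lgals3 lies at chr14:47367751-47386160 on the plus strand and Lgals9 at chr11:78962974-78984946 on the minus strand. Counts come from the 3-prime end of transcripts, so CPM needs no correction for gene length. Levels of different galectins are set side by side on this scale, though differences in capture between genes were not measured. Promoter windows of RefSeq for GRCm38.p6, the 250 bases before each start, were matched for 4 of the 5 genes (Lgals2, Lgals3, Lgals7 and Lgals9). Of these windows none held the palindromic consensus of the glucocorticoid response element, searched on both strands and found in 3 of all 32851 windows (0.00913%), and none held TATAAA, which 12.4% of all windows held. The bases that lie outside annotated exons are shown for Lgals2, which was nearly restricted to epithelia-like cells, and for Lgals7, the gene of the granulosa contrast. For Lgals2 they are the 150 bases before the start (chr15:78855530-78855679, minus strand), with the letters AGATAA in capitals, a motif of zinc-finger factors of the GATA family held by 9.99% of all windows. For Lgals7 they are 93 bases inside the annotated gene (chr7:28864136-28864228, plus strand), ending 157 bases before the RefSeq start, with GGGCGG, a GC box held by 32.7% of all windows, in capitals.
Lgals2: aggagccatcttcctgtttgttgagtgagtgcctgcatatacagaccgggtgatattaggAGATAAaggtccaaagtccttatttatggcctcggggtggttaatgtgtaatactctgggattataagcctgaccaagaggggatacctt
Lgals7: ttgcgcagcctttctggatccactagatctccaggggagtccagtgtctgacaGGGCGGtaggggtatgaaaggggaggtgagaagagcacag

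Lgals7 was the leading galectin of granulosa-like cells and was high in epithelia-like cells too. It stood at 1988 CPM (exact Poisson 95% interval 1966 to 2011) in KO and at 1685 CPM (1660.4 to 1710) in WT granulosa-like cells. In epithelia-like cells it was at 1444 CPM in KO and 1383 CPM in WT. Both libraries put these classes well above all others. Theca-like cells followed at 250.5 CPM in KO and 246 CPM in WT. Germ-like cells were lowest, at 11.7 CPM (11.1 to 12.3) in KO and 11.1 CPM (10.5 to 11.7) in WT.

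The order granulosa-like, epithelia-like, theca-like was the same in both libraries, with a log2 ratio of granulosa-like over epithelia-like cells of 0.46 (0.43 to 0.49) in KO and 0.28 (0.25 to 0.32) in WT. Among the small classes, erythroid-like cells held 150.5 CPM in KO and 69.2 CPM in WT, endothelia-like cells 95.5 and 48.5 CPM, and immune-like cells 93.8 and 57.4 CPM. These small classes did not differ beyond counting error in WT, where their neighbours in the order had log2 ratios of 0.27 (−0.66 to 1.19) and 0.24 (−0.71 to 1.22). In WT immune-like cells 21 of the 23 Lgals7 UMIs came from 1 cell. In WT erythroid-like cells 19 of 21 came from 1 cell, and in WT endothelia-like cells 10 of 18.

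At least 1 Lgals7 UMI was found in 99.3% of KO and 99.7% of WT granulosa-like cells, against 12.7% and 14.5% of germ-like cells, whose median depths were 11293 and 17063 UMIs. With each cell thinned to 3000 UMIs, a depth every kept cell had, the shares were 97.1% in both libraries for granulosa-like cells, and 91.4% in KO and 88.2% in WT for epithelia-like cells. They were 38.9% and 39.7% for theca-like cells, and 3.86% and 3.38% for germ-like cells. Lgals7 was thus found in nearly all granulosa-like cells at equal depth. The median granulosa-like cell held 19.2 Lgals7 counts per 10000 UMIs in KO and 16 in WT, and the 10th percentile was 8.84 and 8.14. The level was broad over cells rather than carried by a few.

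The contrast behind the choice of the family, granulosa-like over germ-like cells in WT, was a 152-fold difference of Lgals7 (log2 ratio 7.25, 7.17 to 7.33). In the KO library, which is not part of that contrast, it was 169.8-fold (log2 ratio 7.41, 7.33 to 7.49). A difference of at least 0.25 in the natural log of counts per 10000 plus 1, the size limit of the study, was passed on the granulosa side by 2 of 4 galectins with at least 100 UMIs in WT, Lgals1 and Lgals7, beside 12.1% of all genes tested. Lgals7 was the value behind the choice, so its pass in WT was given in advance, and the count is no measure of the family. In KO the same 2 of 4 passed, beside 11.8% of all genes. Lgals1 was 15.6-fold higher in WT and 13.0-fold higher in KO granulosa-like cells than in germ-like cells, and Lgals9, at 12.5 and 17.3 CPM in granulosa-like cells, was too low to reach the limit.

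The germ-like level of Lgals7 was set beside transcripts of granulosa markers in the same germ-like cells. Lgals7 stood at 0.589% of its granulosa-like level in KO and 0.656% in WT. The 10 granulosa markers stood at a median of 0.790% of theirs in KO, from 0.312% to 3.98%, and 0.672% in WT, from 0.319% to 3.62%. Lgals7 in germ-like cells as a whole was at the level of these markers. In theca-like cells it stood at 12.6% and 14.6% of the granulosa-like level, above 7 of the 10 markers in both libraries, whose medians were 5.83% and 8.40%. In epithelia-like cells it stood at 72.7% in KO and 82.1% in WT, above 7 and 9 of the 10 markers (medians 51.7% and 53.1%). In endothelia-like cells it was at 4.80% and 2.88%, below marker medians of 6.70% and 4.14%. In erythroid-like cells it was at 7.57% and 4.11%, also below the medians of 7.62% and 5.48%. In immune-like cells it was at 4.72% and 3.41%, beside medians of 4.04% and 2.33%. The highest of the 10 markers stood at 113% in KO and 107% in WT theca-like cells. It stood at 118% and 114% in epithelia-like cells, and at 116% and 99.6% in immune-like cells. At least 1 marker was thus near its granulosa-like level in each of these classes, so the markers set no background there.

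**Figure D1:**
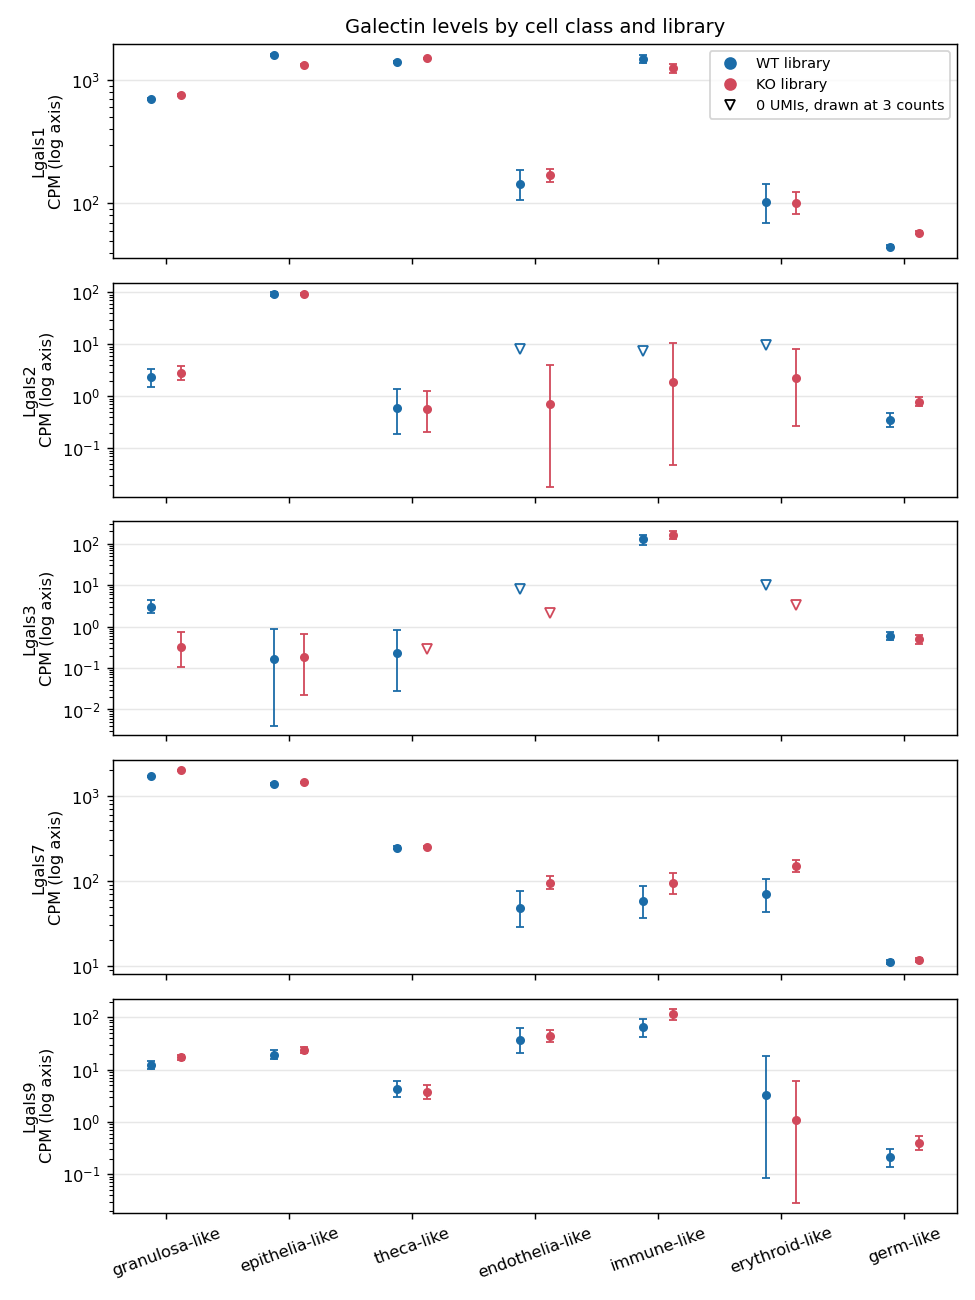
Level of each galectin in CPM on a log axis (rows) over 7 cell classes, in the WT (blue) and KO (red) library, with exact Poisson 95% intervals, and open triangles at 3 counts where no UMI was found. Lgals7 is highest in granulosa-like cells (1988 CPM in KO, 1685 in WT), Lgals2 in epithelia-like cells (93.6 and 92.0), and Lgals3 in immune-like cells (163 and 127).

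Lgals1, the most widespread member, was high in stromal, epithelial and immune cells alike. Theca-like cells held 1491 CPM (1468 to 1515) in KO and 1406 CPM (1381 to 1432) in WT. Epithelia-like cells held 1330.3 CPM (1309 to 1352) in KO and 1599 CPM (1568 to 1631) in WT. Immune-like cells held 1242 CPM (1149 to 1339.8) in KO and 1482 CPM (1365 to 1606) in WT. These classes lay close together, and their order differed between the libraries. In KO theca-like cells were above epithelia-like cells by a log2 ratio of 0.16 (0.13 to 0.20), while epithelia-like and immune-like cells did not differ beyond counting error (0.10, −0.01 to 0.21). In WT neither epithelia-like over immune-like cells (0.11, −0.01 to 0.23) nor immune-like over theca-like cells (0.08, −0.05 to 0.19) differed beyond it.

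Granulosa-like cells held less Lgals1, at 753 CPM (740 to 767) in KO and 698 CPM (682 to 714) in WT. Endothelia-like cells were at 169 and 143 CPM, erythroid-like cells at 101 and 102 CPM, and germ-like cells at 58.1 CPM (56.8 to 59.5) and 44.7 CPM (43.5 to 45.9). Lgals1 therefore ran from stroma and surface epithelium down to germ cells, with granulosa-like cells between. In cells thinned to 3000 UMIs it was found in 96.3% of KO and 93.4% of WT theca-like cells, 81.7% and 80.2% of granulosa-like cells, 24.3% and 16.7% of endothelia-like cells, and 12.4% and 10.4% of germ-like cells. In germ-like cells Lgals1 stood at 3.90% of the KO theca-like level, above all 9 theca markers there, whose median was 0.441% and whose highest was 2.29%. In WT it stood at 2.79% of the epithelia-like level, above 4 of 5 epithelial markers (median 0.468%).

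Lgals2 was nearly restricted to the surface epithelium. Its level was 93.6 CPM (88.0 to 99.5) in KO and 92.0 CPM (84.6 to 99.9) in WT epithelia-like cells. Granulosa-like cells, the next class, held 2.86 CPM (2.08 to 3.85) in KO and 2.31 CPM (1.5 to 3.42) in WT. The log2 ratio of epithelia-like over granulosa-like cells was 5.03 (4.6 to 5.50) in KO and 5.31 (4.74 to 5.95) in WT. Lgals2 stood among the 10 leading genes of the larger epithelia-like cluster, although it was not used to form it. Germ-like cells held 0.791 CPM in KO and 0.353 CPM in WT, and theca-like cells 0.573 and 0.588 CPM. In WT, 0 UMIs were counted in endothelia-like, immune-like and erythroid-like cells, where 3 counts would give 8.09, 7.49 and 9.89 CPM.

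Lgals2 had a UMI in 48.2% of KO epithelia-like cells (exact Clopper-Pearson interval 45.0 to 51.4) and in 56.0% of WT cells (50.7 to 61.2), or in 21.8% and 17.4% after thinning. With 1040 UMIs in 962 KO cells and 570 UMIs in 357 WT cells, cells that lack the transcript cannot be told apart from cells in which it was not captured. In granulosa-like cells the thinned shares were 0.821% and 0.694%. In granulosa-like cells Lgals2 stood at 3.06% of the epithelia-like level in KO and 2.52% in WT, below the median of 5 epithelial markers there, 19.9% and 15.47%.

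**Figure D2:**
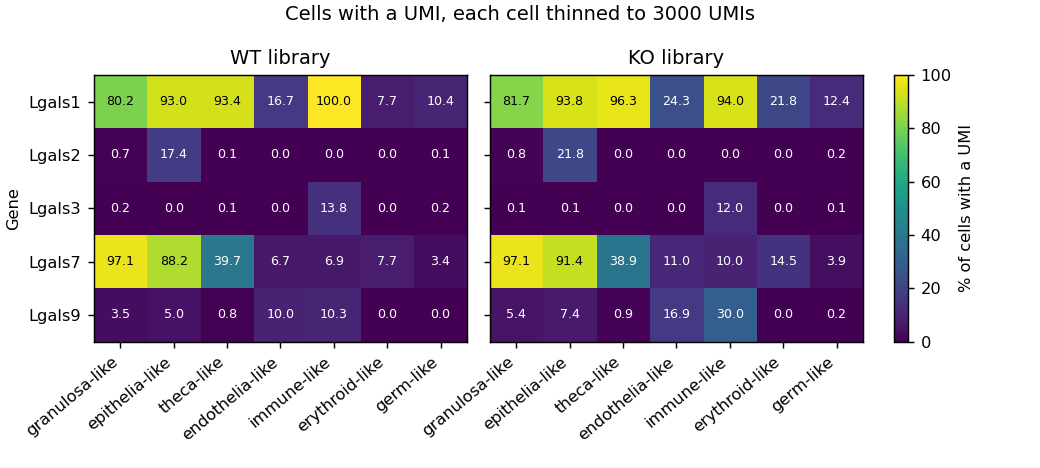
Share of cells with at least 1 UMI (percent, colour and printed value) for each galectin (rows) in each cell class (columns) of the WT and KO library, with each cell thinned to 3000 UMIs. Lgals7 is found in 97.1% of granulosa-like cells in both libraries, and Lgals2 reaches 17.4% (WT) and 21.8% (KO) in epithelia-like cells and under 1% in granulosa-like cells.

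Lgals3, the galectin of macrophages, was an immune gene in these ovaries. Its level was 163 CPM (131 to 201) in KO and 127 CPM (94.7 to 167) in WT immune-like cells, from 87 and 51 UMIs. Only 10 of 50 KO and 7 of 29 WT immune-like cells held one, and a single cell gave 30 of the 87 KO UMIs. All other classes were near 0, at 0.50 CPM in KO and 0.596 CPM in WT germ-like cells, and with 0 UMIs in endothelia-like and erythroid-like cells of both libraries. The 3.06 CPM of WT granulosa-like cells came from 33 UMIs in 4 cells, 21 of them in 1 cell, against 0.326 CPM in KO. Lgals3 in immune-like cells was thus a high level in a minority of cells.

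Lgals9, the ligand of the Havcr2 receptor, ran from immune-like cells over endothelia-like cells to the epithelium. Its level was 114 CPM (87.5 to 147) in KO and 64.9 CPM (42.4 to 95.1) in WT immune-like cells. Endothelia-like cells held 43.8 CPM (33.5 to 56.3) in KO and 37.8 CPM (20.6 to 63.3) in WT. Epithelia-like cells held 23.8 and 19.5 CPM, granulosa-like cells 17.3 and 12.5 CPM, theca-like cells 3.82 and 4.35 CPM, and germ-like cells 0.400 and 0.210 CPM. The order of these 6 classes was the same in both libraries. In WT the step from immune-like to endothelia-like cells did not exceed counting error (log2 ratio 0.78, −0.21 to 1.83). In every other class Lgals9 stood at a higher share of its immune-like level than all 9 immune markers did of theirs. Its share in germ-like cells was 0.350% in KO and 0.324% in WT, and erythroid-like cells held 1 Lgals9 UMI in each library. In granulosa-like cells its share was 15.1% in KO and 19.3% in WT, beside marker medians of 0.00911% and 0.124%. After thinning, Lgals9 had a UMI in 30.0% of KO and 10.3% of WT immune-like cells, 16.9% and 10.0% of endothelia-like cells, and 0.169% and 0.0446% of germ-like cells.

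Added together, the 5 galectins were higher in every somatic class than in germ-like cells. Their sum was 2892 CPM in KO and 3094 CPM in WT epithelia-like cells, 2762 and 2400.4 CPM in granulosa-like cells, 1746 and 1658 CPM in theca-like cells, 1615 and 1732 CPM in immune-like cells, 309 and 229 CPM in endothelia-like cells, 255 and 175 CPM in erythroid-like cells, and 71.5 and 56.9 CPM in germ-like cells. The make-up differed between the classes. Lgals7 gave 72.0% of galectin UMIs in KO and 70.2% in WT granulosa-like cells, whereas Lgals1 gave 85.4% and 84.8% in theca-like cells. In epithelia-like cells Lgals1 and Lgals7 shared the sum, with 46.0% and 49.9% in KO and 51.7% and 44.7% in WT. In thinned cells 2 of the 5 galectins were found together in 75.8% of KO and 76.0% of WT granulosa-like cells, and in 62.8% and 65.3% of epithelia-like cells. A single galectin was found in 59.5% and 59.3% of theca-like cells, and none in 83.7% and 86.3% of germ-like cells.

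The somatic classes were not uniform, and their clusters separated Lgals7 more than Lgals1. The granulosa-like cells fell into a larger cluster led by Calb1, with Lgr5 among its markers (1549 KO and 670 WT cells), and a smaller one led by Ramp1 without Lgr5 (278 and 194 cells). Lgals7 was at 2051 CPM in KO and 1766 CPM in WT in the Calb1 cluster, and at 1511 and 1319 CPM in the Ramp1 cluster. Lgr5 was at 114 and 127 CPM in the Calb1 cluster and at 15.6 and 11.2 CPM in the Ramp1 cluster, while Foxl2 was at 2.21 and 2.37 CPM in the former and 8.90 and 10.2 CPM in the latter. Lgals1 was close in both, at 759.8 and 692 CPM against 705 and 723 CPM. Lgals9 was higher in the Calb1 cluster, at 18.7 CPM (16.5 to 21.2) in KO and 14.1 CPM (11.8 to 16.8) in WT, than in the Ramp1 cluster, at 6.68 CPM (3.45 to 11.7) and 5.11 CPM (2.45 to 9.39).

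In the epithelia-like class, a cluster led by Krt19 (779 KO and 281 WT cells) was set against a cycling cluster led by Ube2c (183 and 76 cells). Lgals7 was at 1637 CPM in KO and 1599.9 CPM in WT in the Krt19 cluster, and at 798 and 701 CPM in the cycling cluster. Lgals2 went the same way, at 101 and 104 CPM against 70.2 and 54.2 CPM. Lgals1 did not, at 1319 and 1529.9 CPM in the Krt19 cluster and 1369 and 1816 CPM in the cycling cluster. The Krt19 cluster held more Lgals7 than the Ramp1 granulosa-like cluster (1511 CPM in KO, 1319 in WT). The class order of granulosa-like over epithelia-like cells thus did not hold for every cluster. In the smaller clusters of the theca-like class, Lgals1 was at 1641 and 1589 CPM in a cluster led by Lum, and at 1737 and 1643 CPM in a cycling cluster led by Mxd3. Lgals7 was at 175 and 117 CPM in the Lum cluster, and at 140.4 and 114 CPM in the cycling cluster.

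**Figure D3:**
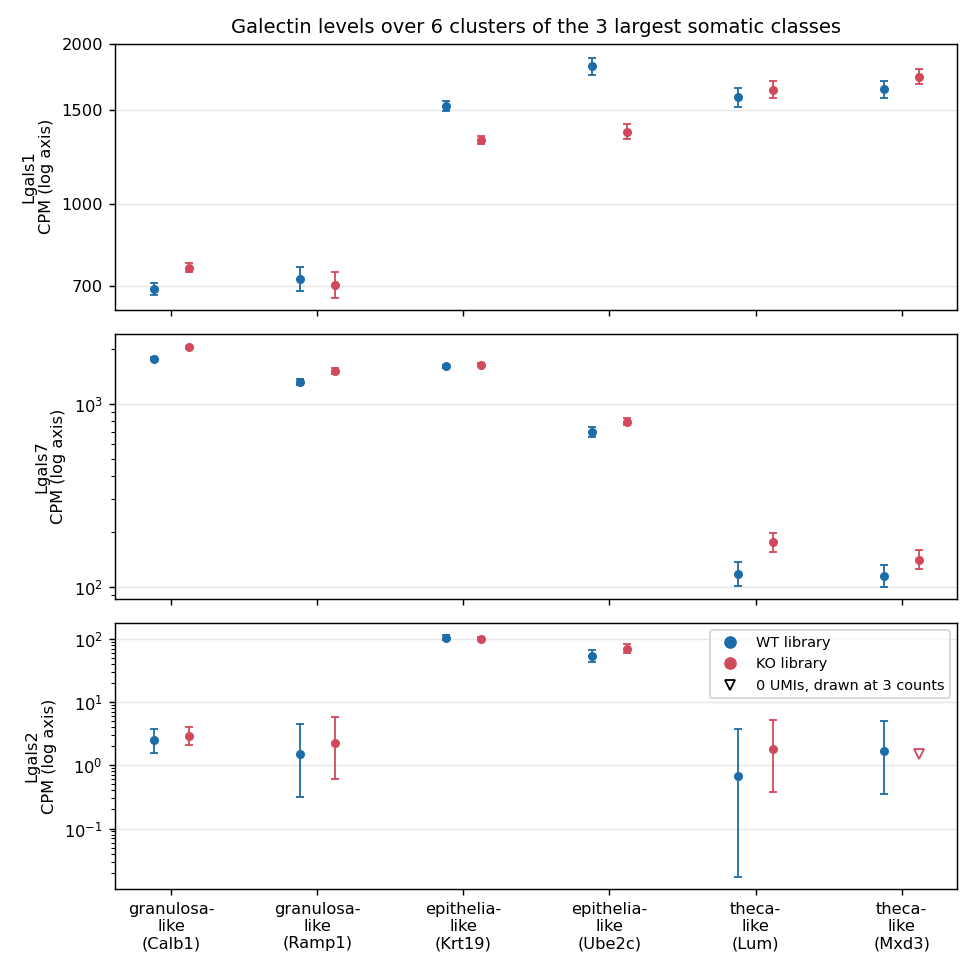
CPM (log axis) of Lgals1, Lgals7 and Lgals2 (rows) over 6 clusters of the 3 largest somatic classes, each named by a leading gene, in the WT (blue) and KO (red) library with exact Poisson 95% intervals, and an open triangle at 3 counts for 0 UMIs. Lgals7 is lower in the Ube2c cluster (798 CPM in KO, 701 in WT) than in the Krt19 cluster (1637 and 1599.9), while Lgals1 is not.

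Within the germ line, Lgals1 was highest in the cells that held premeiotic genes together with some of the meiotic entry genes. The 5 germ-like sub-clusters are called here by a leading gene, since their markers did not separate the stages cleanly. The Rhox5 sub-cluster (767 KO and 378 WT cells) met 5 of 8 premeiotic markers (Sox2, Utf1, Rhox6, Rhox9 and Dppa5a). Yet it also had the highest level of 3 of the 5 meiotic entry genes, Stra8, Rec8 and Zglp1. At Leiden resolution 1 its counterparts were named for meiotic entry from these 3. Gm4969 and Meioc, also meiotic entry genes of the list, went the other way. Gm4969 was at 35.7 CPM in KO and 33.6 CPM in WT, against 56.1 and 51.7 CPM in the Stra8 sub-cluster. Meioc was at 330 and 340 CPM against 410 and 433 CPM. Both the Stra8 and the Unc13b sub-cluster carried recombination markers, 5 of 8 and 4 of 8, and the Nacad and Myom3 sub-clusters were given no stage name. The Rhox5 sub-cluster held 204 CPM of Lgals1 (196 to 212) in KO and 205 CPM (195 to 215) in WT. The sub-cluster led by Stra8, the gatekeeper gene of meiotic entry, held 76.0 CPM (73.1 to 79.0) in KO and 102 CPM (96.2 to 109) in WT. The Unc13b sub-cluster held 28.4 and 26.6 CPM, the Nacad sub-cluster 31.5 and 27.2 CPM, and the Myom3 sub-cluster 20.3 and 25 CPM. Lgals1 and Stra8 had the same leading pair of sub-clusters in both libraries, with Stra8 at 1411 and 1457 CPM in the Rhox5 sub-cluster and at 734 and 967 CPM in the Stra8 sub-cluster. This match of order did not hold at Leiden resolution 1. There a sub-cluster led by Phlda2 held 217 CPM of Lgals1 in KO and 183 in WT, with Stra8 at 716 and 617 CPM. A sub-cluster led by Hist1h1b held 188 and 201 CPM of Lgals1, with Stra8 at 1659 and 1756 CPM.

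In thinned cells, Lgals1 was found in 39.5% of KO and 44.7% of WT cells of the Rhox5 sub-cluster, 18.3% and 20.5% of the Stra8 sub-cluster, and 7.37% and 7.45% of the Unc13b sub-cluster. The Lgals1 level of the Rhox5 sub-cluster was 13.7% of the theca-like level in KO and 14.6% in WT, while 9 theca markers in the same cells had medians of 0.584% and 0.485%, with 2.36% and 2.99% as their highest. The other members did not follow this order. Lgals7 was at 12.9 and 10.7 CPM in the Rhox5 sub-cluster, 9.86 and 7.53 CPM in the Stra8 sub-cluster, 11.0 and 5.66 CPM in the Unc13b sub-cluster, 9.21 and 6.28 CPM in the Nacad sub-cluster, and 16.7 and 16 CPM in the Myom3 sub-cluster. Lgals2, Lgals3 and Lgals9 stayed at or under 1.03 CPM in all 5.

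A finer clustering of germ-like cells, at Leiden resolution 1 in place of 0.5, split off a small group of cells with oocyte genes, in which Lgals7 stood out. These late prophase-like cells, 32 in KO and 117 in WT, met 5 of 8 late prophase markers (Figla, Ooep, Nobox, Sohlh1 and Lhx8, genes of early oocytes) and all came from the Myom3 sub-cluster. Lgals7 was at 91.9 CPM (62.8 to 129.7) in KO and 132 CPM (118 to 148) in WT, against 11.5 CPM (10.9 to 12.1) and 8.69 CPM (8.17 to 9.25) in all other germ-like cells. The fold difference was 8.0 in KO (log2 ratio 3.00, 2.45 to 3.50) and 15.2 in WT (3.93, 3.74 to 4.12). A Lgals7 UMI was found in 17 of 32 KO cells (53.1%) and 93 of 117 WT cells (79.5%), against 12.6% and 13.4% of other germ-like cells. After thinning the shares were 18.8% and 32.5% against 3.82% and 2.86%.

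Lgals1 went the other way in the late prophase-like cells, at 25.8 CPM in KO and 17.4 CPM in WT against 58.0 and 45.0 CPM in other germ-like cells (log2 ratios −1.17, −2.30 to −0.24, and −1.37, −1.86 to −0.92). Granulosa markers in these cells were at the low share seen in other germ-like cells. The 10 granulosa markers had a median of 0.376% of their granulosa-like level in KO and 0.763% in WT, beside 0.796% and 0.690% in other germ-like cells. Lgals7 was at 4.62% and 7.85% of its granulosa-like level, above 9 of 10 markers in KO and 10 of 10 in WT. Irx5 was the highest of them, at 7.06% and 5.07%. Scrublet marked 0% of these cells in either library, and 32 KO cells give a wide interval.

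The KO and WT libraries were then compared within each class, to ask how galectin levels stood without GR. In the 4 large classes no galectin passed the size limit. Of the galectins with at least 100 UMIs over both libraries, 0 of 4 passed the size limit of 0.25 in germ-like cells, beside 0.175% of all genes, and 0 of 3 in granulosa-like cells, beside 0.284%. In theca-like cells 0 of 2 passed, beside 0.142%, and in epithelia-like cells 0 of 4, beside 0.254%. Several of the galectins counted were low. In germ-like cells Lgals2 and Lgals3 were under 1 CPM in both libraries, and Lgals7 was at 11.7 CPM in KO and 11.1 CPM in WT. Lgals9 was at 17.3 and 12.5 CPM in granulosa-like cells, and at 23.8 and 19.5 CPM in epithelia-like cells. At such levels the size limit could be passed only with a large ratio, so the counts of 0 say little on these low galectins.

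Lgals7 was higher in KO granulosa-like cells by a log2 ratio of 0.24 (0.21 to 0.27), a fold of 1.18, and by 0.06 (0.02 to 0.10) in epithelia-like cells. It was at 0.02 (−0.06 to 0.11) in theca-like and 0.08 (−0.03 to 0.19) in germ-like cells, intervals that include 0, though the germ-like ratio was 0.29 without cells holding markers of another class. Lgals1 had no common direction. It was higher in KO by 0.38 (0.33 to 0.43) in germ-like, 0.11 (0.07 to 0.15) in granulosa-like and 0.08 (0.05 to 0.12) in theca-like cells, and lower by −0.27 (−0.30 to −0.23) in epithelia-like and −0.26 (−0.42 to −0.09) in immune-like cells. The immune-like ratio was 0.048 without cells holding markers of another class, and germ markers stood at 16% of their germ-like level in KO and 1.62% in WT immune-like cells, whose part in the ratio was not tested. With the mixed clusters kept in their first class the theca-like ratio of Lgals1 turned to −0.13 and the granulosa-like ratio to −0.005.

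The make-up of the germ-like class differed between the libraries too, and its part in the difference of Lgals1 cannot be told apart from genotype. Of 10083 KO germ-like cells, 767 were in the Rhox5 and 2367 in the Stra8 sub-cluster, against 378 and 522 of 6722 in WT. Within sub-clusters the log2 ratio of KO over WT was −0.01 (−0.10 to 0.08) in Rhox5, −0.43 (−0.53 to −0.32) in Stra8, 0.10 (−0.07 to 0.26) in Unc13b, 0.21 (0.04 to 0.38) in Nacad and −0.30 (−0.45 to −0.16) in Myom3 cells. With the KO sub-clusters in WT proportions, an alternative chosen after seeing the data, Lgals1 was at 41.1 CPM in KO against 44.7 CPM in WT, a log2 ratio of −0.12. The same weighting put Lgals7 at 13.4 CPM in KO against 11.1 CPM in WT, a log2 ratio of 0.28 in place of 0.08.

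Lgals9 was higher in KO by 0.47 (0.17 to 0.78) in granulosa-like cells, where it held 266 KO and 135 WT UMIs, and by 0.82 (0.13 to 1.54) in immune-like cells, from 61 and 26 UMIs. Its ratio in epithelia-like cells was 0.28 (−0.03 to 0.61). Lgals2 did not differ beyond counting error in epithelia-like cells (0.03, −0.12 to 0.17), nor did Lgals3 in immune-like cells (0.36, −0.16 to 0.89). In germ-like cells, where it was under 1 CPM in both libraries, Lgals2 had a ratio of 1.17 (0.63 to 1.73) from 95 and 42 UMIs.

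In the small classes many genes passed the limit, and so did Lgals7 in some. In endothelia-like cells 1 of 2 galectins passed, Lgals7, at 95.5 CPM in KO and 48.5 CPM in WT (log2 ratio 0.98, 0.26 to 1.77), beside 16.1% of all genes. The germ markers stood at 22.9% of their germ-like level in KO and 2.08% in WT endothelia-like cells, and Scrublet marked 20.6% and 0% of these cells. Without the marked cells the ratio of Lgals7 was −0.89. In erythroid-like cells 1 of 2 passed, again Lgals7, at 150.5 and 69.2 CPM (1.12, 0.45 to 1.86), beside 19.3% of all genes, in 55 KO and 13 WT cells whose germ markers stood at 54.3% and 44.0% of the germ-like level. A single cell gave 19 of the 21 Lgals7 UMIs in WT erythroid-like cells, and 25 of 135 in KO. In endothelia-like cells a single cell gave 10 of 18 in WT and 20 of 133 in KO. These WT levels are therefore not class-wide values. In immune-like cells 0 of 2 passed, beside 20.7% of all genes.

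**Figure D4:**
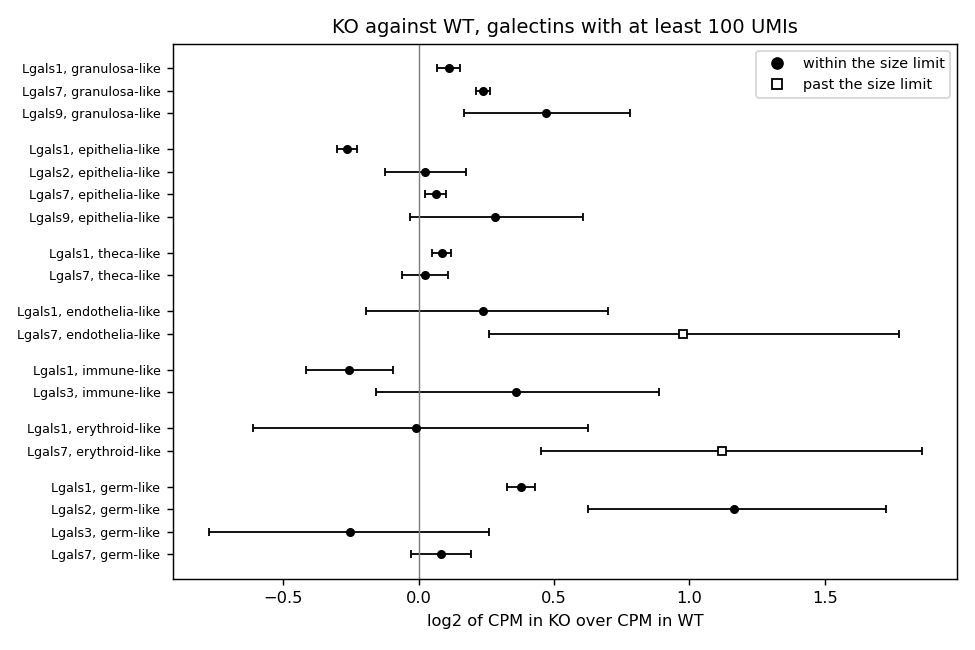
Log2 ratio of CPM in KO over WT (x axis) for each galectin with at least 100 UMIs over both libraries, by cell class (y axis), with exact 95% intervals that cover counting error only; filled circles are within the size limit and open squares past it. Lgals7 in endothelia-like (0.98) and erythroid-like cells (1.12) is past the limit, and Lgals1 lies on either side of 0, from −0.27 in epithelia-like to 0.38 in germ-like cells.

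Galectins bind branched N-glycans, so the genes of the enzymes that build these sugars were read beside them. Of the 13 glycan genes, 8 had at least 100 UMIs in granulosa-like cells, and 0 passed the size limit between KO and WT there, with a median log2 ratio of −0.14 beside −0.02 for all genes. None of the 10 measured in germ-like cells passed (median −0.20 beside −0.06), nor of the 8 in theca-like and the 8 in epithelia-like cells. The largest ratios in granulosa-like cells were those of the sialyltransferase gene St3gal4, at 12.8 CPM in KO and 15.6 CPM in WT (−0.29, −0.60 to 0.01), and of Mgat5, which adds the β1,6 branch, with −0.25 (−0.67 to 0.18). Both intervals included 0. At the level of St3gal4 the size limit could be passed only with a large ratio, so the count of 0 says little on low genes. Over germ-like cells, 1 of 10 glycan genes passed on the granulosa-like side in KO and 1 of 9 in WT, a share near the 11.8% and 12.1% of all genes. It was Mgat4b, at 67.1 CPM in KO and 64.8 CPM in WT against 15.2 and 14.9 CPM.

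Of 12 genes for galectin partners, 8 had at least 100 UMIs in granulosa-like cells, and 0 passed the size limit between KO and WT (median 0.03 beside −0.02 for all genes). Of those 8 the largest ratios were those of Nrp1, a coreceptor, with −0.94 (−1.45 to −0.43) from 3.78 CPM in KO and 7.22 CPM in WT, and of the secreted galectin-3-binding protein gene Lgals3bp, with 0.90 (0.40 to 1.42) from 7.94 and 4.26 CPM. At such levels the size limit could be passed only with a very large ratio, so the count of 0 says little on genes this low. In the small classes, where many genes passed, 1 of 4 partners with at least 100 UMIs passed in endothelia-like (16.1% of all genes), 1 of 4 in immune-like (20.7%) and 1 of 2 in erythroid-like cells (19.3%). Nrp1 was the one in endothelia-like cells, at 182 CPM in KO and 264 CPM in WT (−0.54, −0.88 to −0.18), and in immune-like cells, at 78.8 and 192 CPM (−1.29, −1.86 to −0.73). Cd24a, a glycoprotein of the cell surface, was the one in erythroid-like cells, at 62.4 and 231 CPM. Germ markers were at a higher share of their germ-like level in KO than in WT in each of these classes (22.9% and 2.08%, 16% and 1.62%, 54.3% and 44.0%), and their part in the lower KO values was not tested. None of the 7 partner genes measured in germ-like cells passed. Over germ-like cells, 2 of 8 partners passed on the granulosa-like side in KO and 2 of 7 in WT, Itgb1, the β1 integrin, and Lamp2, beside 11.8% and 12.1% of all genes. As many passed on the germ-like side, 2 in each library, Lamp1 and Pdcd6ip. On that side 1643 of 13237 genes passed in KO and 1650 of 13198 in WT.

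Of the other galectin family genes, 5 were in the tables besides Lgals3bp. Lgalsl, a galectin-like gene, reached 50.1 CPM in KO and 54.6 CPM in WT epithelia-like cells, and was the only one at 50 CPM or more in a class. Lgals8 was highest in immune-like cells, at 43.1 and 42.4 CPM. Lgals4, Lgals12 and Grifin stayed at or under 3.30 CPM in every class. Lgals3bp was at 37.5 CPM in KO and 2.50 CPM in WT immune-like cells, from 20 and 1 UMIs.

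The genes most like each galectin were read over 11 class and library pairs of at least 50 cells, among 5315 genes, with Pearson's r of log2(CPM + 10) as a description. These points share their libraries and their class names. Lgals7 was closest to Serpinb6b (r = 0.991), to Rspo1 (0.982), a Wnt agonist of the ovary, and to Amhr2 (0.979), the receptor of anti-Müllerian hormone. Lgals1 was closest to Cd63 (0.978), Timp2 (0.972) and Dpm3 (0.966). Lgals3 was closest to the macrophage genes Cybb, Tyrobp and Fcer1g, with an r of at least 0.999, where the immune-like point of the KO library alone was high. Lgals9 was closest to Gbp7 (0.991), Uqcrq (0.961) and Ptbp3 (0.956).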

How the data were processed

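Single-cell RNA-seq (10x, 3-prime, version 3 chemistry) was analysed from 1 KO and 1 WT library. The deposited values are whole-number UMI counts per gene and cell barcode, made by the authors with Cell Ranger 3.0.2 per the file headers. The submitters' processing notes name mm10 and Seurat 3.2.3, and the annotation release is not given in the sources used here. The cell limits stated by the study were applied: 1500 to 6500 genes and 5500 to 40000 UMIs in WT, 1200 to 5500 genes and 3000 to 30000 UMIs in KO, and under 10% mitochondrial UMIs.

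Cells were clustered with scanpy 1.11.5 (2000 variable genes without galectins, 30 components, 20 neighbours, Leiden resolution 0.5, seed 1), first all together and then somatic and germ cells on their own. A cluster was named from at least 3 markers, each found in 10% of its cells at a fold of 2 over the rest. The second pass, the mixed class and the form of this rule were set after clusters had been seen, and the rebuilt classes may differ from those of the study. Markers of perivascular cells named a cluster only at resolution 1. Scrublet calls, with an assumed doublet rate of 8%, were recorded and kept in the classes.

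UMIs were summed per class and library and given as CPM with exact Poisson 95% intervals. Ratios have exact conditional intervals, and shares of cells exact Clopper-Pearson intervals, which cover counting error only. With 1 library per group, and cells that are no replicates, there is no test and no p-value. A gene was counted as passing at a difference of 0.25 in ln(counts per 10000 + 1) with at least 100 UMIs over both sides. Scaling factors came from edgeR 4.0.16 in R 4.3.3, and the computation of levels, ratios and calls was checked on generated counts with known differences. The named genes are the 5 galectins, the genes of the glycan and partner lists that passed the size limit between KO and WT or had the 2 largest ratios in granulosa-like cells, family genes of at least 50 CPM in a class, and the 3 genes most like each galectin that reached 100 CPM in a class. Glycan and partner genes named for granulosa-like over germ-like cells, and leading genes of clusters, were named after their values were seen. The members and lists were chosen with earlier results of these data known. Promoters and positions came from RefSeq (GRCm38.p6) and GENCODE M21. Alternatives were other cell limits, scalings, clusterings, doublet removal, thinning and size limits. Keeping mixed clusters in their first class, and the KO sub-clusters in WT proportions, were alternatives chosen after seeing the data. The largest of the 3 theca-like clusters is not reported here.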

Additional observations from a re-analysis of the deposited data

Results flagged for a closer look

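The log2 ratio of Lgals1 in KO over WT pointed in opposite directions in different classes, at 0.38 in germ-like, 0.11 in granulosa-like and 0.085 in theca-like cells against −0.27 in epithelia-like and −0.26 in immune-like cells. Within the germ-like class it was 0.21 in the Nacad sub-cluster, −0.30 in the Myom3 sub-cluster and −0.43 in the Stra8 sub-cluster. The immune-like ratio was 0.048 without cells holding markers of another class, and germ markers stood at 16% of their germ-like level in KO and 1.62% in WT immune-like cells. In the immune-like class it was −0.50 in the larger cluster and 0.61 in a cluster of 6 KO and 2 WT cells with mast cell genes. In each of these the counting intervals lay on opposite sides of 0, and the difference between classes or clusters was not tested, since each genotype had 1 library.

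Barcodes outside the cell limits also held galectin UMIs. In the 2327 left-out KO barcodes Lgals1 was at 249 CPM, Lgals2 at 5.29 CPM, Lgals3 at 2.38 CPM, Lgals7 at 216 CPM and Lgals9 at 3.83 CPM. In the 2385 left-out WT barcodes the levels were 229 CPM for Lgals1, 3.96 CPM for Lgals2, 3.07 CPM for Lgals3, 177 CPM for Lgals7 and 3.66 CPM for Lgals9. Lgals3 was higher there than in kept cells, at 0.930 CPM in KO and 1.06 CPM in WT, and Lgals7 was lower than in kept cells, at 333 and 217 CPM.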

How the results depend on the processing

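No paired analysis was possible because each group holds 1 library. Of the recomputed values that answer a comparison, 76 stayed within their counting interval or within 1.5 times the count, and 22 moved. Of the others, 695 stayed, 214 moved and 1 reversed. The KO over WT log2 ratio of Lgals7 in granulosa-like cells (0.24) was 0.30 without cells holding markers of another class, 0.20 at Leiden resolution 1, 0.27 with edgeR's TMM factors and 0.18 with the mixed clusters kept in their first class, positive in 11 of 11 alternatives. That of Lgals1 in theca-like cells (0.08) was 0.035 with common cell limits, 0.039 as a mean over cells, 0.034 thinned to 3000 UMIs, −0.011 without cells holding other markers and −0.13 with mixed clusters kept. Thinning gave −0.23 for Lgals1 in epithelia-like cells (−0.27), 0.51 for Lgals2 there (0.03) and 2.21 for Lgals9 in immune-like cells (0.82), which was 1.71 without cells holding other markers. Lgals3 in immune-like cells (0.36) was −0.25 at resolution 1 and with mixed clusters kept. Lgals7 in endothelia-like cells (0.98) was −0.89 without cells marked by Scrublet. The cause was not tested. With a size limit of 0.5 the genes passing between KO and WT were 0 (of 24) for germ-like, 7 (of 30) for granulosa-like, 3 (of 14) for theca-like and 3 (of 24) for epithelia-like cells, and between granulosa-like and germ-like cells 1292 (of 3211) in KO and 1276 (of 3246) in WT. With mixed clusters kept, an alternative chosen after seeing the data, 40 passed in theca-like cells. TMM and median-of-ratios scaling moved immune-like ratios by −0.16 and −0.17 and put Lgals1 past the limit there, while its ratio (−0.26) was 0.048 without cells holding other markers. Removing cells with markers of another class left no epithelia-like cells, and theca-like cells were then highest for Lgals1 in WT and immune-like cells in KO. Late prophase-like cells were a cluster of their own only at resolution 1. The small classes, with 13 to 30 cells in WT, limit what the depth can show.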

Other observations

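Perivascular-like cells, 102 in KO and 37 in WT, formed a cluster of their own at Leiden resolution 1. They held Lgals1 at 1451 CPM in KO and 1121 CPM in WT, near the theca-like level, and Lgals7 at 149 and 72.4 CPM. Lgals9 had 1 UMI in KO and 4 UMIs in WT perivascular-like cells. The mixed clusters held Lgals1 at 413 CPM in KO and 358 CPM in WT, Lgals7 at 499 and 434 CPM, and Lgals2 at 8.44 and 10.1 CPM.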
